A study of Homo sapiens with 16 samples.

Results

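RASGEF1A, RASGEF1B, RASGRP1, RASD1, RAPGEFL1 and RERG, 6 genes of RAS and RAP signaling, were followed through an estrogen time course in 2 cell lines. They were picked by name out of the 26364 genes of the count tables, and the fall of RASGEF1B at 2 h in Ishikawa cells was among the measured values that chose them. Ishikawa is a human endometrial adenocarcinoma line with estrogen receptor alpha, and T-47D is a human breast carcinoma line that also has this receptor. Both lines had been kept for days in medium stripped of hormones and then received 10 nM 17β-estradiol (E2) for 0, 2, 4 or 8 h, the 0 h cells having received vehicle. Each line and time point had 2 replicates, which gave 16 bulk RNA-seq libraries from poly(A) RNA. Nothing in the labels says that the 2 replicates came from separate cultures, so p-values measure the spread between these libraries, which may be technical. Each line is 1 established culture and stands for itself only.

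RAS and RAP proteins are small GTPases that signal when bound to GTP and rest when bound to GDP. Exchange factors load them with GTP, GTPase-activating proteins return them to the GDP state, and effectors such as the RAF kinases carry the signal onward. Among the members, RASGRP1 is an exchange factor for RAS that answers to diacylglycerol and calcium and is best known from lymphocytes. RASGEF1A and RASGEF1B belong to a small exchange factor family whose RASGEF1B protein acts on RAP2. RAPGEFL1 resembles the exchange factors of RAP. RASD1 and RERG are themselves RAS-like GTPases, the first named for its induction by dexamethasone and the second for its regulation by estrogen and its growth inhibition in breast cancer cells.

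With E2, RASGEF1B fell (by the values that chose it) and RASGRP1 and RAPGEFL1 rose in Ishikawa cells, and RASGRP1, RAPGEFL1 and RERG rose in T-47D cells. Their promoters are shown because the responses start at 2 h, and those of RASGEF1B, RASGRP1 and RAPGEFL1 were among the 4 of 6 members matched in the RefSeq table of 35116 promoters (GRCh38.p14). Each line gives the 250 bases before the start of transcription, 5′ to 3′ on the gene's own strand, from chr4:81471908-81472157 (minus strand), chr15:38564815-38565064 (minus strand) and chr17:40177220-40177469 (plus strand). Capitals mark GC boxes (GGGCGG), the arms of an estrogen response element (GGTCA) and CCAAT boxes (CCAAT), each searched on both strands.
RASGEF1B: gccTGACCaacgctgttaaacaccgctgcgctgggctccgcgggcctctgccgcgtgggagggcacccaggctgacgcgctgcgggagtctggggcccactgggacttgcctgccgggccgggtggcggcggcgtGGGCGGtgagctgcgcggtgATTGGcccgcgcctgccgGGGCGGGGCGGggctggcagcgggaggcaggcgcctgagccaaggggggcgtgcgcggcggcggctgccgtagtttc
RASGRP1: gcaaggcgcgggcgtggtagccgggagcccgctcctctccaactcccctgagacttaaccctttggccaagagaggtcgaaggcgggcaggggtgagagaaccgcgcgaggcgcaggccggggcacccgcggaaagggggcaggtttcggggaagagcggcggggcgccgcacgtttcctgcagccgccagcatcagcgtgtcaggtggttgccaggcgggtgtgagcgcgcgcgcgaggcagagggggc
RAPGEFL1: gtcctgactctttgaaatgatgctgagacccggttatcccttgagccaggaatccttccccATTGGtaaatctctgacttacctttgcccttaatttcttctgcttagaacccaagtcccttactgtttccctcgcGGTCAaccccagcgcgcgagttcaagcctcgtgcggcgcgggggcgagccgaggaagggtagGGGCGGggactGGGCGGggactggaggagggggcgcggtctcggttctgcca

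The 3 promoters differed in what they held. RASGEF1B had 3 GC boxes, of which the last 2 overlap, 1 estrogen response element arm and 1 CCAAT box. RAPGEFL1 had 2 GC boxes, 1 arm and 1 CCAAT box, and RASGRP1 had none of these letters. Of all promoters of this length, 42.6% held a GC box, 32.6% an arm and 32.0% a CCAAT box, so each match is common. An AP-1 site (TGANTCA), found in 6.57% of promoters, and a full palindromic estrogen response element (GGTCANNNTGACC), found in 0.0399%, were in none of the 4 member promoters. G and C made up 77.2% of the RASGEF1B promoter, 71.6% of the RASGRP1 promoter and 59.6% of the RAPGEFL1 promoter, beside a median of 58% over all promoters. The same palindrome was also searched in hg19, the build of the count tables, where it occurs 2194 times. It was absent within 50 kb of the start site of every one of the 6 members, whereas 1788 of 19856 protein-coding genes have a copy in that window. The nearest copy lay 93.5 kb from RASD1, 330.1 kb from RAPGEFL1, 493.5 kb from RASGEF1A, 1103.8 kb from RASGRP1, 1235.5 kb from RASGEF1B and 2006.0 kb from RERG. These are matches of letters only, and no match says only that these letters are not in the window.

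Libraries held 41177912 to 58918642 counts in Ishikawa cells and 41223813 to 64148903 in T-47D cells. Between 71.2% and 74.6% of the counts from 1 to 10 were even numbers, so that a count need not be 1 independent fragment. Ishikawa cells had 9 of 9 endometrial epithelial markers above 1 CPM (counts per 1000000 scaled library counts), and T-47D cells had 9 of 9 luminal breast markers, while PAX8, SOX17, EMX2 and HOXA10 of the endometrial list were under 1 CPM there. Ishikawa cells also had 8 of the 9 luminal markers above 1 CPM, all but GATA3. Of 5 fibroblast markers, COL1A1 (mean 210.4 CPM) was the only one above 1 CPM in Ishikawa cells, and COL1A1 (81.2) and LUM (6.04) were above it in T-47D cells. Of 4 endothelial markers, VWF (7.30) was above it in Ishikawa cells and 0 were in T-47D cells. Of 5 blood cell markers, PTPRC, CD3E and CD2 were at or near 0, and the 5 together came to 0.719 to 1.37 CPM in Ishikawa and 1.40 to 2.16 CPM in T-47D cells. Of the 4 late Ishikawa libraries (4 h and 8 h), 3 were closest to a library of the other time label. The root mean square log2 difference over 15787 genes was lowest, 0.329, between 4 h replicate 2 and 8 h replicate 1 and highest, 0.391, between the 2 replicates of 4 h. In T-47D cells the 2 replicates of 4 h were the closest late pair at 0.297, and 8 h replicate 2 was slightly closer to 4 h replicate 1 (0.330) than to its own replicate (0.332). Results at 4 h and 8 h in Ishikawa cells are therefore also given with these 4 libraries as 1 late group.

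Before E2, the lines expressed different members, compared here per kb of the canonical transcript. In Ishikawa cells RASGEF1B led with 24.9 ± 1.05 CPM per kb (SD, n = 2), followed by RASGEF1A at 5.60 ± 0.195, RAPGEFL1 at 2.74 ± 0.233, RASGRP1 at 0.755 ± 0.00624 and RASD1 at 0.278 ± 0.0588. RERG closed the order at 0.00948 CPM per kb, the mean of a library with 0 counts and one with 2. In T-47D cells RASGEF1A at 7.94 ± 0.0640 CPM per kb and RERG at 7.01 ± 0.948 stood first. RAPGEFL1 followed at 5.36 ± 0.482, then RASGEF1B at 0.368 ± 0.0535, RASGRP1 at 0.159 ± 0.0277 and RASD1 at 0.0411 ± 0.0399 CPM per kb. No neighbors in either order had overlapping libraries, although RASGEF1A and RERG in T-47D cells differed by less than 1 SD of RERG.

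**Figure D1:**
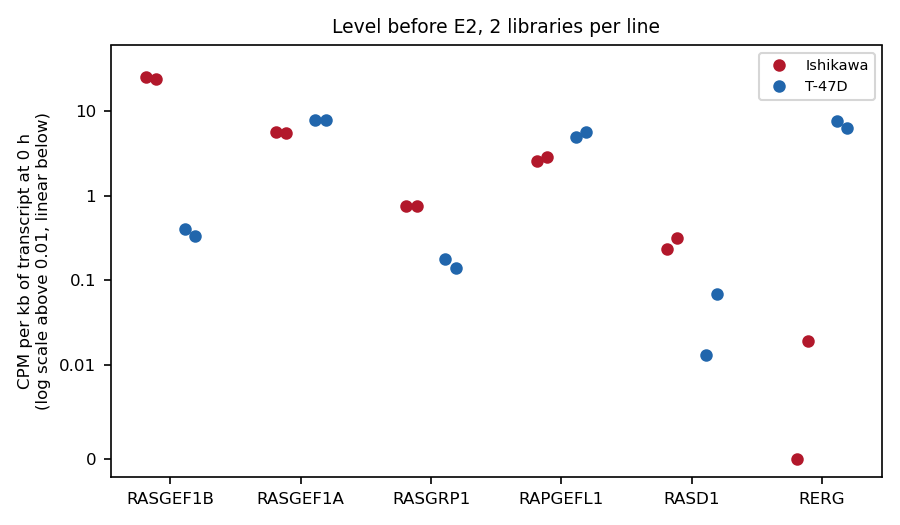
Level of each member before E2, in CPM per kb of canonical transcript (log axis above 0.01, linear below it), with 1 point for each of the 2 libraries of each line. RASGEF1B is near 25 in Ishikawa and under 1 in T-47D cells, and RERG is near 7 in T-47D and at or near 0 in Ishikawa cells.

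The test of the baseline called RASGEF1A, RASGRP1 and RAPGEFL1, beside 81.9% of 17090 genes. RASD1 and RERG passed the filter of that fit only through the line where they are high, so they are not counted and are described without a p. With at least 10 counts in every library, where neither was tested, 3 members were called. RASGEF1A was higher in T-47D than in Ishikawa cells by 0.57 ± 0.08 (SE) on the log2 scale (edgeR quasi-likelihood test, adjusted p = 1.87e-06), and RAPGEFL1 by 1.03 ± 0.15 (adjusted p = 1.81e-06). RASGRP1 was lower in T-47D cells, with a log2 difference of −2.17 ± 0.19 (adjusted p = 1.40e-09). RASD1 had 45 counts in the 2 Ishikawa libraries and 6 in the 2 T-47D libraries, a ratio of 7.04 per total count (95% exact interval 2.99 to 20.2). The interval covers counting error only and takes each count as independent, so it is too narrow where pairs of counts come from 1 fragment. The fitted log2 difference of RASD1 was −2.68 ± 0.69. With 1 library left out that difference ranged from −4.21, without T-47D 0 h replicate 2, to −1.91. RERG had 1365 counts in the 2 T-47D libraries and 2 in the 2 Ishikawa libraries, a ratio of 727 (201 to 6011, with the same limit). Its fitted log2 difference was 9.42 ± 0.39. That value became 8.53 without Ishikawa 0 h replicate 1 and 12.6 without Ishikawa 0 h replicate 2. RASGEF1B was given no p, since its Ishikawa 0 h level entered the choice of members, and its fitted difference was −6.01.

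RASGEF1B (hg19 chr4:82347547-82965397, minus strand, canonical transcript of 14 exons) was followed first in Ishikawa cells, where it had 75.5 and 71.1 CPM before E2, 21.6 and 19.97 after 2 h, 40.9 and 32.3 after 4 h, and 37.0 and 41.3 after 8 h. The level was lowest at 2 h, and both the 4 h and the 8 h libraries lay between those of 2 h and 0 h without overlap with either. The fitted log2 change against 0 h was −1.82 ± 0.10 (SE) at 2 h, −1.002 ± 0.10 at 4 h and −0.90 ± 0.10 at 8 h. With the late libraries as 1 group it was −0.95 ± 0.08. The 2 h change ranked 10 from the lowest of 15787 genes. These values chose the gene and are a description without a test, and 4.35% of all genes were called at 2 h in this line. In T-47D cells RASGEF1B was scarce, with 26 to 59 counts per library. Its levels there were 1.19 and 0.970 CPM before E2, 0.707 and 0.610 after 2 h, 0.918 and 0.828 after 4 h, and 0.920 and 0.759 after 8 h. No change passed the test. The log2 values were −0.71 ± 0.31 at 2 h (adjusted p = 0.173), −0.31 ± 0.29 at 4 h (adjusted p = 0.501) and −0.37 ± 0.29 at 8 h (adjusted p = 0.390). All E2 libraries were below both 0 h libraries, but the share of all genes so separated was not counted. Such orders of 2 libraries against 2 are descriptions only, here and for the other members. A p that misses the threshold does not show that the gene was unaffected.

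**Figure D2:**
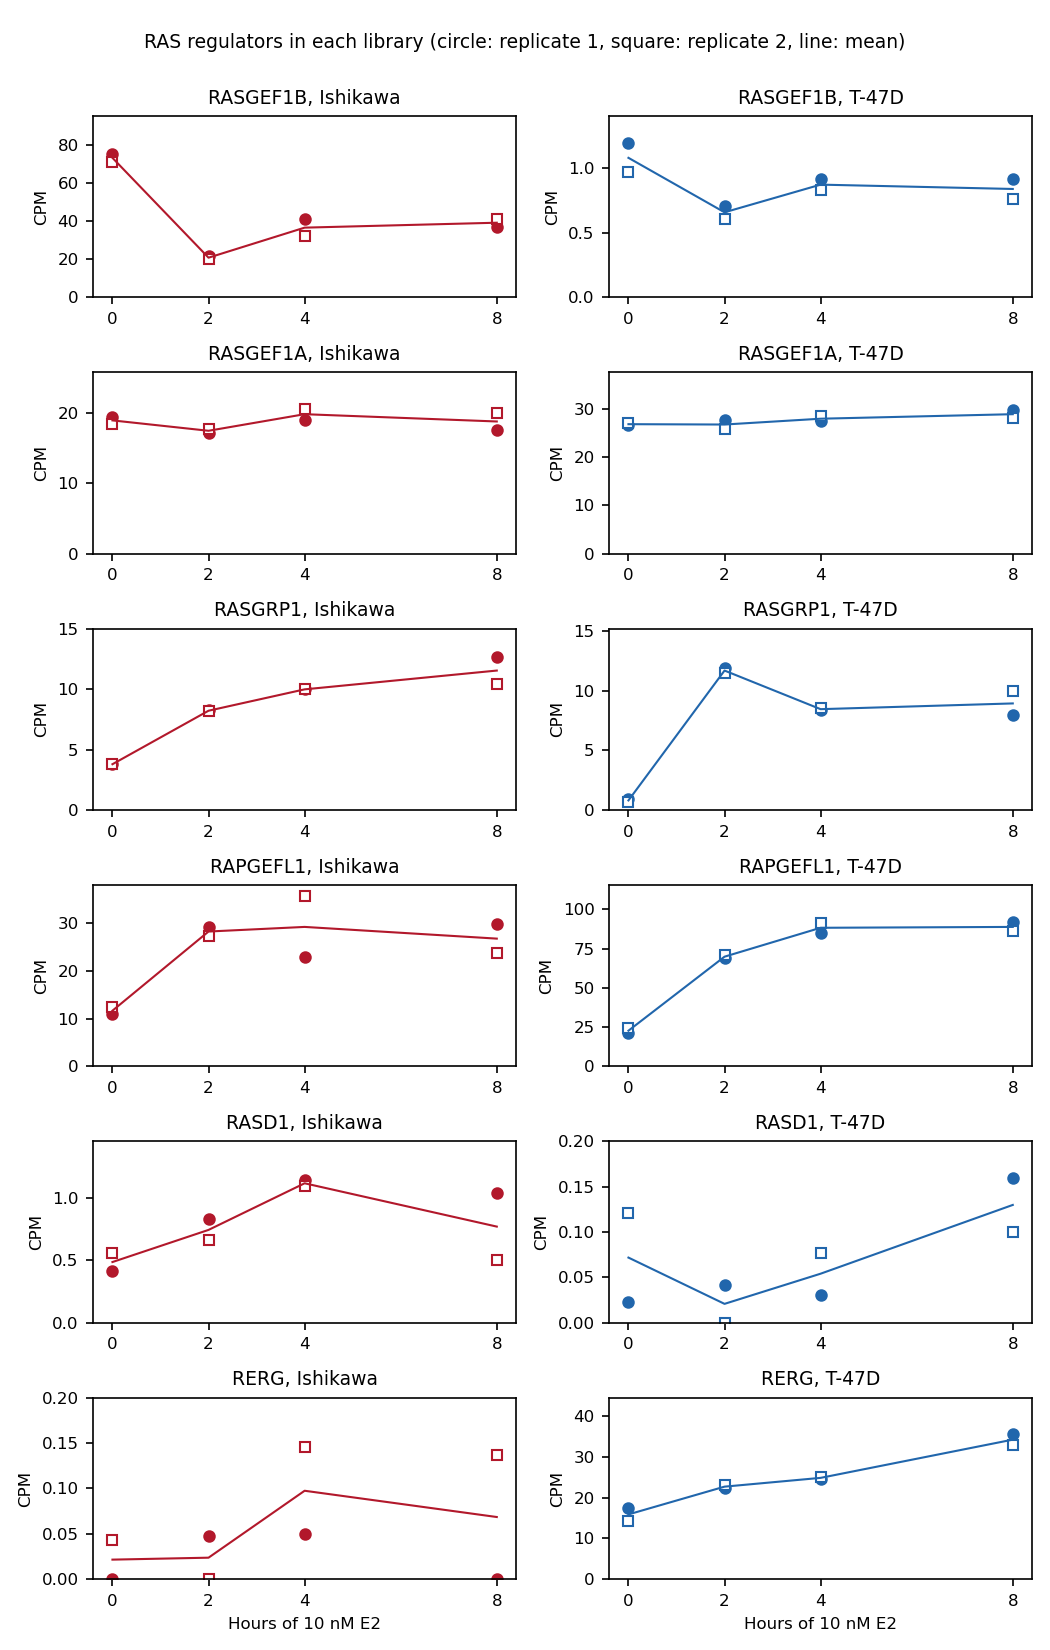
CPM of the 6 members in each library against hours of E2, Ishikawa on the left and T-47D on the right, with a filled circle for replicate 1, an open square for replicate 2 and a line through the means. Each panel has its own axis from 0. RASGEF1B in Ishikawa cells drops from over 70 to near 20 CPM at 2 h and is near 40 at 8 h, while RASGRP1 in T-47D cells goes from under 1 to over 11 CPM at 2 h.

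RASGEF1A (chr10:43689983-43762513, minus strand, 13 exons), its family member, passed none of the tests of change over time or of a difference in response between the lines. Over the 8 libraries it ranged from 17.2 to 20.6 CPM in Ishikawa cells (median 18.7) and from 25.8 to 29.8 CPM in T-47D cells (median 27.6). The log2 change in Ishikawa cells was −0.12 ± 0.09 at 2 h, given without a test, 0.07 at 4 h (adjusted p = 0.691) and −0.01 at 8 h (adjusted p = 0.934). Both 2 h libraries there were below both 0 h libraries. In T-47D cells the largest of the 3 values against 0 h was 0.11 at 8 h (adjusted p = 0.278). The 4 h and 8 h libraries there were all above both 0 h libraries. These orders of libraries are descriptions, since the share of all genes so separated was not counted.

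RASGRP1 (chr15:38780304-38857776, minus strand, 17 exons) rose in both lines, and with a different size. T-47D cells had 0.900 and 0.703 CPM before E2, 11.9 and 11.5 after 2 h, 8.37 and 8.51 after 4 h, and 7.92 and 9.93 after 8 h. The gene went from under 1 CPM to its highest level at 2 h, and the later libraries stayed below both 2 h libraries. The rise at 2 h was 3.86 ± 0.17 on the log2 scale, or 14.5-fold (adjusted p = 1.64e-11), the 16th largest of 15594 genes. At 4 h it was 3.39 ± 0.17 (adjusted p = 9.14e-11) and at 8 h 3.47 ± 0.17 (adjusted p = 5.00e-11). The decline from 2 h to 4 h was −0.47 ± 0.12 (adjusted p = 0.0378). This call was lost with the replicate number as a block (adjusted p = 0.0536) and without any 1 of its 4 libraries (adjusted p = 0.152 to 0.225). From 4 h to 8 h the log2 change was 0.08 ± 0.12 (adjusted p = 0.810).

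In Ishikawa cells RASGRP1 started higher and moved less. It had 3.82 and 3.78 CPM before E2, 8.26 and 8.21 after 2 h, 10.0 and 10.0 after 4 h, and 12.7 and 10.5 after 8 h. Every E2 library was above both 0 h libraries. The log2 change at 2 h was 1.12 ± 0.13, given without a test. It was 1.40 ± 0.13 at 4 h (adjusted p = 3.88e-06) and 1.61 ± 0.13 at 8 h (adjusted p = 8.23e-07), and 1.51 ± 0.13 for the late libraries as 1 group (adjusted p = 3.44e-07). The change in T-47D cells exceeded that in Ishikawa cells by 2.00 ± 0.23 on the log2 scale at 4 h (adjusted p = 7.18e-06) and by 1.85 ± 0.23 at 8 h (adjusted p = 1.34e-05). The level at 4 h was 8.44 ± 0.1003 CPM in T-47D and 10.0 ± 0.0114 in Ishikawa cells (SD, n = 2). At 8 h it was 8.92 ± 1.42 in T-47D and 11.6 ± 1.55 in Ishikawa cells. At both times the T-47D libraries were below the Ishikawa libraries, though CPM were scaled within each line. RASGRP1 overlaps 3 antisense noncoding genes and a Y RNA in the annotation, and the strand setting of the counting is not given in the sources used here, so reads of the opposite strand could be included.

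RAPGEFL1 (chr17:38333263-38351908, plus strand, 16 exons) was the other member that rose in both lines. T-47D cells had 21.3 and 24.2 CPM before E2, 68.8 and 71.0 after 2 h, 85.0 and 91.6 after 4 h, and 91.7 and 86.0 after 8 h. All E2 libraries lay far above 0 h, and those of 4 h and 8 h overlapped each other above those of 2 h. The log2 rise was 1.62 ± 0.07 at 2 h (adjusted p = 7.49e-12), 1.96 ± 0.07 at 4 h (adjusted p = 3.60e-13) and 1.97 ± 0.07 at 8 h (adjusted p = 2.59e-13). The further rise from 2 h to 4 h was 0.34 ± 0.06 (adjusted p = 0.00251), and this call was lost without 2 h replicate 1 (adjusted p = 0.0642) or without 4 h replicate 2 (adjusted p = 0.0632). From 4 h to 8 h the change was 0.01 ± 0.06 (adjusted p = 0.965).

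In Ishikawa cells RAPGEFL1 had 10.9 and 12.3 CPM before E2, 29.2 and 27.2 after 2 h, 22.8 and 35.5 after 4 h, and 29.7 and 23.7 after 8 h. All E2 libraries were above 0 h and overlapped one another, and the replicates of 4 h were the furthest apart. The log2 change was 1.27 ± 0.16 at 2 h, given without a test, 1.32 ± 0.16 at 4 h (adjusted p = 5.51e-05) and 1.20 ± 0.16 at 8 h (adjusted p = 0.000125), and 1.26 ± 0.15 for the late libraries as 1 group (adjusted p = 1.21e-05). The change in T-47D cells was larger by 0.76 ± 0.19 at 8 h (adjusted p = 0.0145). That call was lost without Ishikawa 0 h replicate 2 (adjusted p = 0.0725), Ishikawa 8 h replicate 2 (adjusted p = 0.0844), T-47D 0 h replicate 1 (adjusted p = 0.0728) or T-47D 8 h replicate 1 (adjusted p = 0.0531). At 4 h the difference was 0.65 ± 0.19 and did not pass (adjusted p = 0.0551). It was 0.71 ± 0.17 with the 4 h and 8 h libraries of each line as 1 group (adjusted p = 0.00974). With 1 library left out it ranged from 0.35 without Ishikawa 4 h replicate 1 (adjusted p = 0.271) to 0.98 without Ishikawa 4 h replicate 2 (adjusted p = 0.000326), and the second was the single such case that passed.

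RERG (chr12:15260717-15501609, minus strand, 5 exons) rose in T-47D cells in a slower course. It had 17.4 and 14.4 CPM before E2, 22.2 and 23.1 after 2 h, 24.5 and 25.1 after 4 h, and 35.6 and 32.9 after 8 h. Libraries of successive time points did not overlap. The log2 rise was 0.51 ± 0.09 at 2 h (adjusted p = 0.000591), 0.64 ± 0.09 at 4 h (adjusted p = 2.82e-05) and 1.11 ± 0.09 at 8 h (adjusted p = 2.40e-08). The step from 2 h to 4 h was 0.13 (adjusted p = 0.540) and the step from 4 h to 8 h was 0.46 ± 0.08 (adjusted p = 0.00344). Ishikawa cells had 0 to 6 RERG counts per library, too few for the filter. RERG-AS1, an antisense gene inside the RERG locus that shares 0 exonic bases with it and was looked at after its values were seen, had 0 counts in every Ishikawa library and 111 to 169 in T-47D cells. Its log2 change at 8 h was −0.28 ± 0.18 (adjusted p = 0.276). PTPRO on the opposite strand and RERG-IT1 on the same strand also overlap RERG.

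RASD1 (chr17:17397751-17399709, minus strand, 2 exons) was near the limit of detection. In Ishikawa cells it had 19 and 26 counts before E2, 35 and 36 after 2 h, 46 and 45 after 4 h, and 61 and 22 after 8 h. Both 2 h and both 4 h libraries were above 0 h, and those of 8 h overlapped with it. In CPM the means were 0.485 ± 0.103 at 0 h and 1.12 ± 0.0360 at 4 h (SD, n = 2). The log2 change was 1.20 ± 0.40 at 4 h (adjusted p = 0.0561) and 0.69 ± 0.40 at 8 h (adjusted p = 0.239). The 8 h value was 0.05 without 8 h replicate 1 and 1.08 without 8 h replicate 2, and passed in neither case. The 4 h change passed without the filter (adjusted p = 0.0141), with a minimum of 10 counts per library (adjusted p = 0.0444) and in a fit of 0 h and 4 h alone (adjusted p = 0.0465), and did not with the late libraries as 1 group (0.95 ± 0.36, adjusted p = 0.0629). T-47D libraries held 0 to 8 counts, and RASD1 was not tested there.

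**Figure D3:**
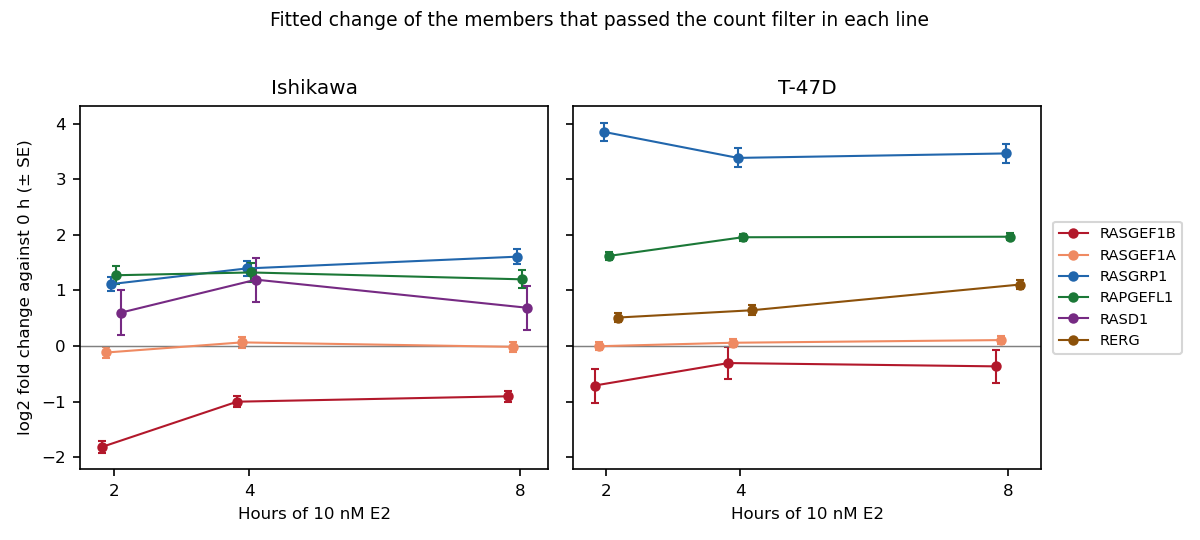
Fitted log2 fold change against 0 h at 2, 4 and 8 h of E2 for the members that passed the count filter in each line, with bars of 1 SE. RASGRP1 in T-47D cells is near 3.9 at 2 h and near 3.5 at 8 h, RAPGEFL1 stays near 1.3 in Ishikawa and reaches 1.97 in T-47D cells, and RASGEF1B in Ishikawa cells goes from −1.82 to −0.90.

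Counted by comparison, 5 of 6 members passed the filter in each line, RERG being left out in Ishikawa and RASD1 in T-47D cells. In Ishikawa cells 2 of the 4 members given a p were called at 4 h, beside 14.3% of all genes, and 2 of 4 at 8 h, beside 22.1%. In T-47D cells 3 of 5 were called at 2 h, 4 h and 8 h, all of them higher, beside 9.30%, 21.5% and 29.7% of all genes. Between 2 h and 4 h 2 of 5 were called, 1 in each direction, beside 3.40%, and between 4 h and 8 h 1 of 5, beside 3.42%. The change differed between the lines for 1 of 3 members at 4 h and 2 of 3 at 8 h, beside 6.03% and 10.0% of all genes. With 3 to 5 members and a choice made with results known, these counts describe the members only.

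The wider pathway was read from 5 lists with 92 genes in all, the members included, and RASGEF1B was left out of the Ishikawa counts because the same 0 h libraries chose it. At 8 h in Ishikawa cells, 14 of the 85 others tested rose and 12 fell, which is 30.6%, beside 22.1% of all genes. At 8 h in T-47D cells, 8 of 78 rose and 11 fell, which is 24.4%, beside 29.7%. The median log2 change of the lists was 0.05 in Ishikawa and −0.03 in T-47D cells, beside −0.0088 and 0.0030 over all genes. Exchange factors of RAS counted 2 risen and 0 fallen of 7 in Ishikawa and 1 risen and 1 fallen of 6 in T-47D cells. The list of RAP and RAL exchange factors with the RASGEF1 proteins had 3 risen and 3 fallen of 15 in Ishikawa and 2 and 2 of 14 in T-47D cells. GTPase-activating proteins had 1 risen and 5 fallen of 19 in Ishikawa and 1 and 4 of 19 in T-47D cells. RAS-family GTPases had 8 risen and 2 fallen of 30 in Ishikawa and 4 and 4 of 27 in T-47D cells. RAS effectors had 0 risen and 2 fallen of 14 in Ishikawa, and in T-47D cells 0 of 12 were called at 8 h, after 2 at 4 h.

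RASGRP1 and RAPGEFL1 had the largest rises of these lists at 8 h in both lines among genes with a mean of at least 1 CPM. They were followed in Ishikawa cells by RASA3, a GTPase-activating protein, at 0.68 ± 0.07 (adjusted p = 4.95e-06) and the GTPase RRAS2 at 0.57 ± 0.07 (adjusted p = 7.81e-05). The largest falls in Ishikawa cells were those of RGL2, an exchange factor for RAL, at −1.30 ± 0.26 (adjusted p = 0.00264), and the GTPases RASL10A at −1.03 and DIRAS2 at −0.97. In T-47D cells RERG and the GTPase GEM, at 0.67 ± 0.16 (adjusted p = 0.00449), came next. The falls were led there by the RAP GTPase-activating proteins SIPA1 at −0.79 ± 0.10 (adjusted p = 6.70e-06) and RAP1GAP at −0.68 ± 0.15 (adjusted p = 0.00217), before RASGRF1 at −0.64 and RASL11B at −0.50. Called in both lines with the same sign were RASGRP1, RAPGEFL1, RALGPS2, an exchange factor for RAL, and the RAS-like GTPase NKIRAS1, which rose, and SIPA1 and RAPGEF3, an exchange factor for RAP that answers to cyclic AMP, which fell. RASGRF1, a RAS exchange factor, was called in both with opposite signs, and in Ishikawa cells it rested on 0 to 23 counts per library. Its mean there was 0.0217 CPM at 0 h and 0.298 at 8 h. It thus passed the Ishikawa filter only through E2 libraries, and its rise there is a description.

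**Figure D4:**
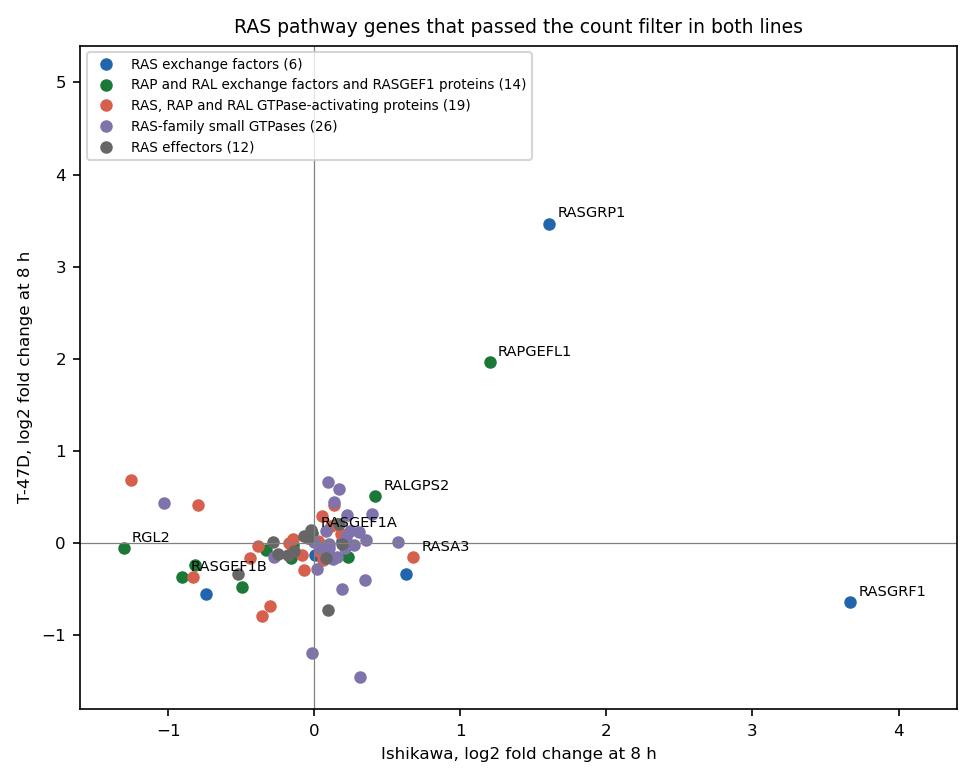
Log2 fold change at 8 h of E2 in Ishikawa (horizontal) and T-47D cells (vertical) for the 77 list genes that passed the count filter in both lines, colored by list. RASGRP1 and RAPGEFL1 stand apart at the upper right, RASGEF1B lies at −0.90 in Ishikawa cells, and RASGRF1 at the far right had few counts in Ishikawa cells.

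Genes with the most similar course were ranked by Pearson correlation of log2 CPM over the 8 libraries of a line, which share time points and depth, so that the values are a description. Closest to RASGEF1B in Ishikawa cells were ADAMTS1 (r = 0.991), SPRY1 (0.988) and ZNF217 (0.987). Closest to RASGRP1 in T-47D cells were SIAH2 (0.998), KCTD6 (0.997) and MYB (0.997), and in Ishikawa cells ST8SIA4 (0.989), KCNJ5 (0.988) and, again, KCTD6 (0.988). RAPGEFL1 was closest to GREB1 (0.997), PLCL1 (0.997) and HSPB8 (0.996) in T-47D cells and to SEMA3F (0.989), LOXL4 (0.987) and VDR (0.983) in Ishikawa cells. RERG in T-47D cells was closest to GRPR (0.991), CMTM7 (0.989) and ELOVL2 (0.988).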

How the data were processed

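Bulk RNA-seq libraries covered Ishikawa and T-47D cells after 0, 2, 4 and 8 h of 10 nM E2. HISAT2 (alignment to hg19), SAMtools and featureCounts (UCSC Known Genes) were used by the authors, whose deposited values are unnormalized counts per gene, 1 table per line. Their versions, the strand setting and the handling of read pairs and multiply mapped reads are not given in the sources used here. Samples were grouped by the labels.

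From the deposited counts, edgeR 4.0.16 in R 4.3.3 was run with filterByExpr (15787 genes in Ishikawa, 15594 in T-47D, 17090 over both), TMM scaling and the quasi-likelihood F-test, with all 8 libraries of a line in 1 fit. Comparisons between lines used all 16. A gene was called at a Benjamini-Hochberg adjusted p under 0.05. CPM are on TMM-scaled totals, log2 CPM had a prior count of 2, and SE is the log2 change divided by the square root of F. Exact conditional intervals of count ratios cover counting error only. The script was tested on simulated data. Transcripts came from GENCODE on GRCh37, and promoters from RefSeq. Totals from 41177912 to 64148903 counts set the precision, and no replicate pair held identical values.

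The members and gene lists were chosen with earlier results of these data known. No p is given for any member at 2 h in Ishikawa cells, for RASD1 and RERG at baseline, or for RASGEF1B where its Ishikawa 0 h libraries enter. Response differences between lines are given for members that passed the filter in both. Named list genes were, per line, the 4 largest rises and 4 largest falls at 8 h with a mean of at least 1 CPM and both 8 h libraries beyond both 0 h libraries, and any called with opposite signs in the lines. The 3 most similar genes were taken per member, and members not printed here followed the same rule. Alternatives were DESeq2 1.42.0, scaling by RLE, a minimum of 10 counts per library in place of filterByExpr, no filter, the replicate block, only the time points compared, pooled late libraries and leaving out each library. Late libraries were pooled in Ishikawa comparisons, and in both lines for response differences between lines. A crossed replicate block was added after seeing the data.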

Additional observations from a re-analysis of the deposited data

Results flagged for a closer look

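The change against 0 h differed between the lines by a test of the difference itself, T-47D minus Ishikawa, in 3 cases. For RASGRP1 it differed by 2.00 ± 0.23 (SE) on the log2 scale at 4 h (edgeR interaction, adjusted p = 7.18e-06) and by 1.85 ± 0.23 at 8 h (adjusted p = 1.34e-05). Over all alternatives the 4 h value ranged from 1.84 to 2.20 (adjusted p = 1.91e-13 to 0.000217) and the 8 h value from 1.68 to 2.05 (adjusted p = 1.13e-11 to 0.000513), and both stayed called. For RAPGEFL1 it differed by 0.76 ± 0.19 at 8 h (adjusted p = 0.0145), with a range of 0.58 to 0.91 (adjusted p = 1.95e-09 to 0.0844).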

How the results depend on the processing

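Of 321 member values under settings other than leaving out a library, 308 were unchanged, and of 224 with 1 library left out, 208 were. Ishikawa 2 h values, and those of RASGEF1B where Ishikawa libraries enter, were unchanged if they moved by less than the combined replicate SD. All others were unchanged if they kept their direction and their side of the threshold, and those without an adjusted p under an alternative were left out. The reversals were all of RASGEF1A, whose changes are near 0. Its T-47D 2 h log2 value became 0.00073 under DESeq2, 0.00067 under RLE scaling, 0.0080 without the filter, 0.0084 with at least 10 counts in every library, 0.0078 with only the time points compared and −0.048 to 0.053 with 1 library left out. Its Ishikawa 8 h value became 0.025 with the late libraries as 1 group and −0.11 to 0.080 with 1 library left out. Members called from 2 h to 4 h in T-47D cells went from 2 to 1 with the replicate block and to 0 to 1 with 1 library left out. Those called at baseline, counted here with RASD1 and RERG, went from 5 to 3 with at least 10 counts in every library, where neither was tested. Members whose 4 h response differed between lines went from 1 to 2 without the filter and with pooled late libraries, and stood at 1 to 2 with 1 library left out, and at 8 h at 1 to 2.

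Same-numbered replicates did not deviate together (correlations −0.115 to 0.0533 in Ishikawa and −0.0547 to 0.0595 in T-47D cells). With 2 replicates per group this does not settle whether same-numbered samples were prepared together. Apart from RASGRP1 from 2 h to 4 h, the replicate block changed no call of a member. A block with the numbers of the Ishikawa 8 h libraries exchanged called 3 members at 4 h and 2 at 8 h.

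Over all genes, Ishikawa calls at 2 h went from 686 to 1162 without the filter and 322 to 1735 with 1 library left out, at 4 h from 2251 to 4055 with pooled late libraries and 1002 to 2995, and at 8 h from 3488 to 1409 to 4234. T-47D calls at 2 h went from 1450 to 816 to 1490 with 1 library left out, and at 4 h from 3355 to 1821 to 2932. From 2 h to 4 h they went from 530 to 830 without the filter, 1264 with only the time points compared and 198 to 255 with 1 library left out, and from 4 h to 8 h from 533 to 914 and 170 to 600. The 4 h difference between lines went from 1031 to 658 to 1177. The cause was not tested. Depth limits RASD1 in both lines, RASGEF1B in T-47D cells and RERG in Ishikawa cells.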

Other observations

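Across the 5 RAS pathway lists, the other members included and RASGEF1B left out, 34 of the 86 genes tested were higher in T-47D than in Ishikawa cells at 0 h and 44 were lower, which is 90.7%, beside 81.9% of all genes. Some of these, such as RASD1, RERG and RASL12, passed the filter of that fit only through the line where they are high. The share is therefore a description. At 2 h in T-47D cells, RASGEF1B included, 6 of 78 rose and 6 fell, which is 15.4%, beside 9.30%. The rises include those of RASGRP1, RAPGEFL1 and RERG, members chosen with earlier results known.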
